A study of Macaca mulatta with 21 samples.

Results

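WNT ligands, their receptors and their secreted antagonists were read on Affymetrix rhesus macaque arrays in 6 pluripotent stem cell lines and in skin fibroblasts. The set holds 43 of the 14133 genes with a platform symbol: 20 ligands (17 WNT and 3 RSPO genes), 13 receptors and co-receptors (9 FZD, 2 LRP and 2 ROR genes), 9 antagonists (4 SFRP genes, 4 DKK genes and WIF1) and the feedback target AXIN2. Members were chosen by symbol alone, and where several probe sets carried a symbol the brightest over the 21 arrays stood for the gene. WNT3A, WNT9A, FZD2 and FRZB were not analysed here.

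WNT proteins are secreted lipid-modified ligands that bind Frizzled receptors. With the co-receptors LRP5 and LRP6 they stabilise beta-catenin, which acts with TCF and LEF factors on target genes; through ROR receptors and other partners they also act without beta-catenin, in cell polarity and movement. SFRP proteins and WIF1 bind WNT itself, DKK1 binds LRP co-receptors, and R-spondins raise the amount of receptor at the surface. In primate pluripotent cells this pathway is known for roles in self-renewal and in exit toward primitive streak, mesoderm and endoderm.

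ORMES23 (male) is an embryonic stem cell line whose blastocyst came from in vitro fertilisation. CRES-1 (male) and CRES-3 (female) were made from cloned blastocysts, that is, by somatic cell nuclear transfer (SCNT). RiPS1 (male, from fetal skin fibroblasts), RiPS2 (female, from an adult of 10 years) and RiPS3 (female, from an adult of 8 years) were induced pluripotent lines made with retroviruses carrying OCT4, SOX2, Klf4 and cMYC. The somatic group was skin fibroblasts of an adult female of 8 years. Every line, fibroblasts included, was grown on mitotically inactivated mouse embryonic fibroblasts; the culture medium of the pluripotent lines differed from that of the fibroblasts, and undifferentiated colonies were picked by hand while fibroblasts were trypsinized. Each line was 1 derivation with 3 arrays, A, B and C, which the labels call biological replicates. Nothing ties the letters to separate donors, so p-values measure the spread between these arrays, which may in part be technical, and each comparison speaks for the lines named.

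Values are log2 intensities. Array medians lay between 4.98 and 5.14, and the number of arrays limits the precision. A log2 of 5 is treated as background, and the tests took the 11143 genes that reached it on 3 arrays or more. Array A of the fibroblasts stood apart: its correlations with B and C over all probe sets were 0.970 and 0.978, against 0.9825 or more within every pluripotent line. Array A of ORMES23 also stood apart within its line, at 0.9842 with B and 0.9825 with C, where B and C were at 0.9963. The pluripotency markers (8 of 12 listed had a probe set) averaged 10.1 to 10.4 in the pluripotent lines and 4.86 in the fibroblasts. NANOG went the other way, with a mean of 9.96 in fibroblasts and 8.18 to 9.22 in the pluripotent lines, and was called lower in CRES-1, CRES-3, RiPS1 and RiPS3. ZFP42 was near or under log2 5 outside ORMES23, with means of 4.07 in fibroblasts and from 4.10 in RiPS1 upward. In ORMES23 it averaged 5.92 ± 1.52 (SD, n = 3), and only there was it called higher than in fibroblasts. Of 9 fibroblast markers, all 9 reached log2 5 in the fibroblasts, with a list mean of 9.98, and 6 of 9 did so in each pluripotent line, with list means of 6.40 to 7.15. DCN did not set the fibroblasts apart: it averaged 6.44 there and from 6.30 in RiPS1 to 6.82 in ORMES23. In these bulk samples fewer cells of a type and less RNA per cell cannot be told apart.

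Of the 43 genes, 33 passed the filter: 12 ligands, 12 receptors, 8 antagonists and AXIN2. The other 10 were RSPO1, WNT2, WNT6, WNT7A, WNT8A, WNT8B, WNT10A, WNT16, LRP5 and DKK2. They reached log2 5 on at most 2 arrays each, and the largest value among them was 5.32, of RSPO1. Of those tested, 5 (FZD3, FZD5, FZD10, WIF1 and WNT2B) passed through the pluripotent arrays with no fibroblast array at log2 5, and 2 (WNT4 and SFRP5) needed the fibroblast arrays. The filter in part fixed the direction of any difference in these genes. The other 26 passed on the pluripotent arrays and had fibroblast arrays at that level too.

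Between pluripotent cells and fibroblasts, members of the set differed in both directions. FZD5, FZD3, FZD10, ROR1 and WIF1 were called higher in each of the 6 pluripotent lines. WNT4, WNT5A, WNT5B, RSPO3, DKK1, DKK3, SFRP2 and FZD6 were called lower in each of them. A gene was called at an adjusted p under 0.05 (limma, Benjamini-Hochberg over all genes tested) with a fold change of at least 2. The 6 comparisons share the 3 fibroblast arrays and are not independent of each other.

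In ORMES23 against the fibroblasts, 10 of the 33 members were called higher and 8 lower, where 18.5% of all genes tested were called higher and 14.1% lower. In CRES-1, 8 were higher and 8 lower, against 16.4% and 14.2% of all genes. In CRES-3 the counts were 7 and 8, against 19.1% and 14.2%. RiPS1 had 8 and 8, against 19.3% and 13.5%, and RiPS2 had 7 and 8, against 17.2% and 14.6%. RiPS3 had 9 and 8, against 18.3% and 14.2%. Members were called in both directions, at 45.5% to 54.5% of those tested. FZD3, FZD5, FZD10, WIF1, WNT2B and WNT4, whose direction the filter in part fixed, are among those called. No excess over all genes is therefore read from these counts or from the medians that follow. The median log2 difference of members was near that of all genes, at -0.10 against 0.02 in ORMES23. The median size of the difference without its sign was 1.21 for members and 0.60 for all genes in that line, and 0.83 against 0.58 in RiPS2, the lowest of the 6 for members.

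**Figure D1:**
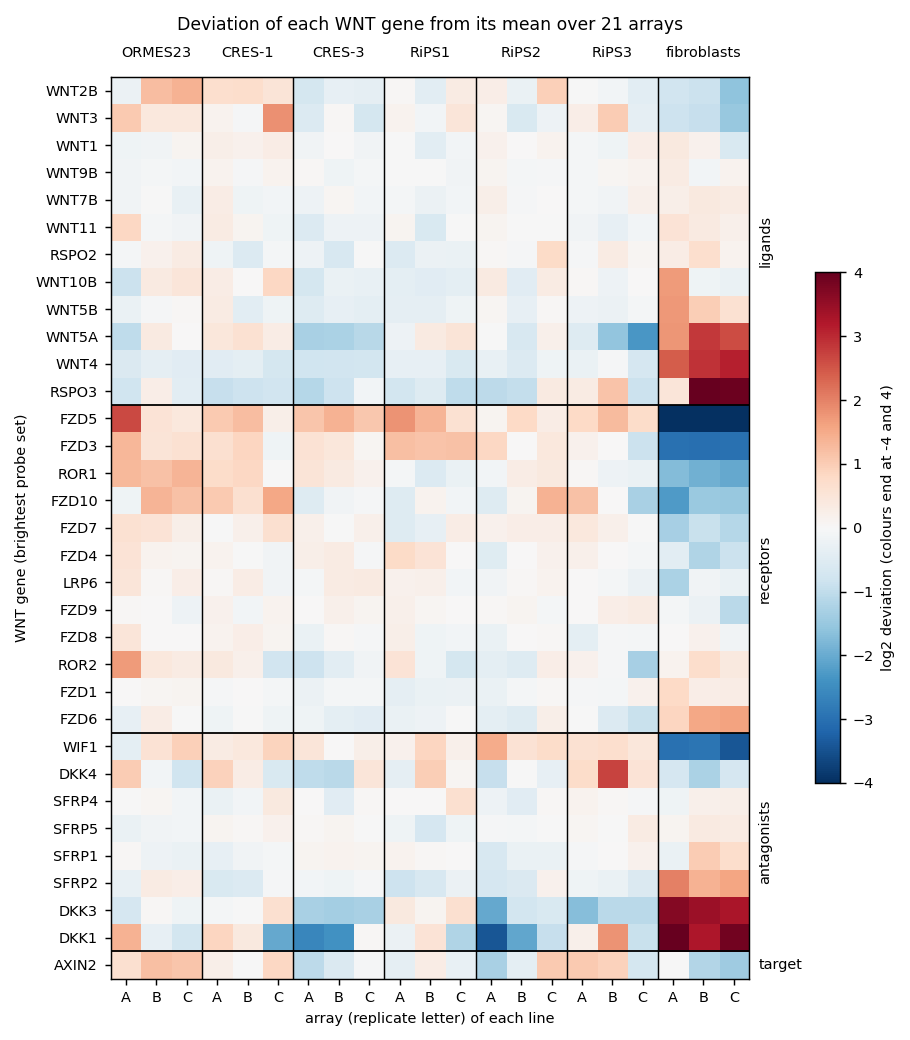
Log2 deviation of each of the 33 tested WNT genes from its own mean over 21 arrays, with arrays in columns by line and genes in rows by role; red is above and blue below that mean. The fibroblast columns hold the deepest colours in both directions, with FZD5, FZD3 and WIF1 low and DKK1, DKK3, RSPO3 and WNT4 high.

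Among ligands, 4 of the 12 tested were called lower in each pluripotent line than in fibroblasts, where 13.5% to 14.6% of all genes were called lower. WNT4 is among the 4 and needed the fibroblast arrays to pass the filter, so no excess is read from this count. WNT5A, a ligand known for signalling through ROR and Frizzled receptors without beta-catenin, read 10.58, 11.64 and 11.45 on fibroblast arrays A, B and C. In ORMES23 it read 7.80, 9.17 and 8.84, in CRES-1 9.27, 9.42 and 9.14, and in CRES-3 7.53, 7.55 and 7.71. In the induced lines it read 8.61, 9.20 and 9.35 (RiPS1), 8.80, 8.18 and 9.04 (RiPS2) and 8.30, 7.26 and 6.50 (RiPS3). No pluripotent array reached the lowest fibroblast array, yet every one stayed above background. The difference was -2.62 in ORMES23 (SE 0.40, adjusted p 1.84e-05, limma), a 6.14-fold lower level, and it ranged from -3.87 in RiPS3 to -1.94 in CRES-1. All 3 WNT5A probe sets tested gave called falls in each line.

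WNT4, a ligand known from kidney and reproductive tract development, read 7.57, 8.04 and 8.26 in fibroblasts. On the 18 pluripotent arrays it lay between 4.35 and 5.09, with a median of 4.70 and 1 array, RiPS3 B, above log2 5. By array, the levels were 4.56, 4.78 and 4.70 in ORMES23, 4.69, 4.76 and 4.45 in CRES-1 and 4.35, 4.38 and 4.41 in CRES-3. They were 4.82, 4.80 and 4.54 in RiPS1, 4.83, 4.58 and 4.98 in RiPS2 and 4.87, 5.09 and 4.46 in RiPS3. The groups did not overlap. Since the pluripotent means were below log2 5, WNT4 was at least 7.76-fold higher in fibroblasts than in each line (adjusted p 4.35e-11 or less, limma).

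WNT5B, a close relative of WNT5A, fell by less, with differences from -1.53 in CRES-3 to -1.20 in RiPS2 (SE 0.22). Fibroblast array A was the highest for this gene, at 7.60 against 6.86 and 6.48. Without it the differences of ORMES23 (-0.90), CRES-1 (-0.89), RiPS2 (-0.89) and RiPS3 (-0.98) were under 2-fold and no longer called. These values are of the brightest probe set. The other WNT5B probe set differed by -2.09 in ORMES23. With all arrays, the 12 comparisons over the 2 probe sets were all called lower.

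RSPO3, an R-spondin, showed the widest spread among fibroblast arrays: 6.12 on A, 10.12 on B and 9.54 on C. Its levels were 4.83, 5.89 and 5.20 in ORMES23, 4.69, 4.80 and 4.85 in CRES-1 and 4.47, 4.81 and 5.51 in CRES-3. In RiPS1 they were 4.91, 5.12 and 4.61, in RiPS2 4.57, 4.67 and 6.0, and in RiPS3 5.95, 6.76 and 4.77. Array B of RiPS3 was above fibroblast array A, so those groups overlapped; the other 5 lines lay below all fibroblast arrays. The ORMES23 difference was -3.29 (SE 0.73, adjusted p 0.000773, limma). Across the 6 lines the difference ran from -3.82 in CRES-1 to -2.77 in RiPS3. Without fibroblast array A it was -4.53 in ORMES23 and -5.05 to -4.01 over the lines; without array B it was -2.53 and -3.05 to -2.01. With only the arrays compared, the RiPS3 call was lost (adjusted p 0.0537, limma).

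The ligands WNT2B and WNT3 went the other way, but not in every line. WNT2B read 4.99, 4.89 and 4.14 in fibroblasts. It read 5.54, 7.0 and 7.16 in ORMES23, 6.42, 6.45 and 6.27 in CRES-1, 5.06, 5.42 and 5.40 in CRES-3, 5.82, 5.35 and 6.09 in RiPS1, 6.03, 5.50 and 6.72 in RiPS2 and 5.75, 5.66 and 5.33 in RiPS3. All pluripotent arrays were above all fibroblast arrays. The rise was called in ORMES23 (1.89, SE 0.36, adjusted p 0.000174, limma; at least 2.96-fold), CRES-1 (1.71), RiPS2 (1.41) and RiPS1 (1.08). It was not called in RiPS3 (0.91) or CRES-3 (0.62), and the RiPS1 call was lost without RiPS1 array C (0.91) or fibroblast array C (0.81). Over its 2 tested probe sets, 4 of 12 comparisons were called. Averaged over probe sets, the RiPS1 and RiPS2 calls were lost (0.69 and 1.00) and ORMES23 was at 1.29.

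WNT3, which is known for inducing the primitive streak in the mouse embryo, averaged 5.36 ± 0.37 (SD, n = 3) in fibroblasts, 7.06 ± 0.37 in ORMES23 and 7.07 ± 1.04 in CRES-1. The CRES-1 mean leaned on array C (8.26), against 6.56 and 6.39 on A and B. RiPS3 averaged 6.74 ± 0.69, RiPS1 6.60 ± 0.30, RiPS2 6.19 ± 0.34 and CRES-3 6.03 ± 0.41. The rise was called in ORMES23 (1.71, SE 0.42), CRES-1 (1.72), RiPS3 (1.38) and RiPS1 (1.25), and was 0.83 in RiPS2 and 0.68 in CRES-3, not called. In CRES-1 it was 1.12 without array C. The RiPS1 call was lost without RiPS1 array C (1.09) or fibroblast array C (1.03), and the RiPS3 call without RiPS3 array B (1.03). Averaged over all WNT3 probe sets, the rise was 1.07 in ORMES23, 1.03 in CRES-1, 0.85 in RiPS3 and 0.81 in RiPS1, and the last 2 were not called.

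The other 6 tested ligands, RSPO2, WNT1, WNT7B, WNT9B, WNT10B and WNT11, were called in none of the 6 comparisons. WNT9B lay between 5.65 and 6.16 on all 21 arrays. WNT10B was 7.50 on fibroblast array A but 5.65 and 5.56 on B and C, within the pluripotent range of 4.94 to 6.64.

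**Figure D2:**
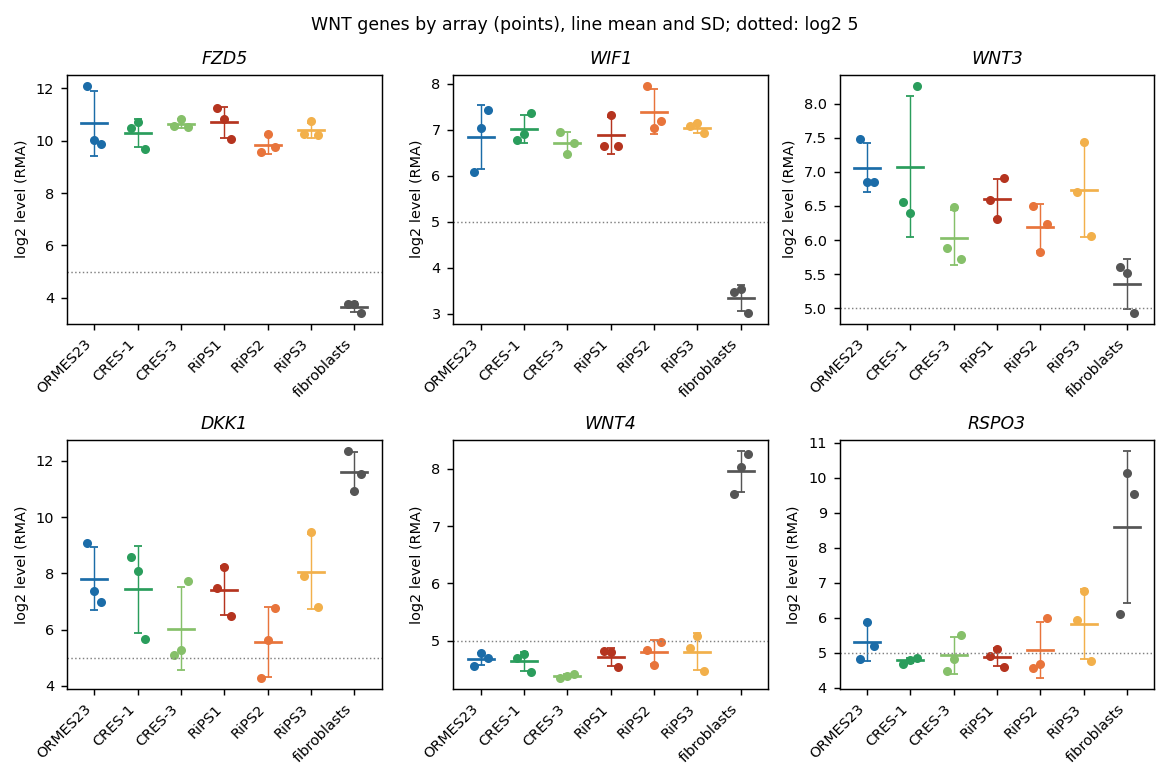
RMA log2 level of 6 WNT genes on each array (points) in the 7 lines, with the line mean (bar) and SD (whisker); the dotted line marks log2 5, treated as background. By the probe sets drawn, FZD5 and WIF1 were below it on all 3 fibroblast arrays, WNT4 was above it on the fibroblast arrays and on 1 pluripotent array, and fibroblast array A of RSPO3 (6.12) lay far below B and C.

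Of the 12 receptors tested, 6 were called higher and 1 lower in ORMES23 and in CRES-3, and 5 higher and 1 lower in each other line, where 16.4% to 19.3% of all genes were called higher and 13.5% to 14.6% lower. FZD3, FZD5 and FZD10 are among those called higher and passed the filter through the pluripotent arrays alone, so nothing is read from these counts. They also hold FZD1 as not called, which other FZD1 probe sets do not bear out.

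FZD5, a Frizzled receptor, had the largest difference of any member by its brightest probe set. On that probe set fibroblast arrays read 3.74, 3.75 and 3.43, all under background. ORMES23 read 12.10, 10.02 and 9.88, CRES-1 10.49, 10.71 and 9.68, and CRES-3 10.57, 10.85 and 10.53. The induced lines read 11.24, 10.82 and 10.06 (RiPS1), 9.55, 10.25 and 9.75 (RiPS2) and 10.27, 10.74 and 10.20 (RiPS3). Every pluripotent array lay far above every fibroblast array, and ORMES23 array A stood above the rest of its line. The ORMES23 difference was 7.02 (SE 0.44, adjusted p 2.24e-10, limma), at least 50.8-fold, and 6.31 without ORMES23 array A; the smallest was 6.21 in RiPS2, at least 28.9-fold. The other FZD5 probe set gave a smaller difference and a higher fibroblast level: it read 5.85, 5.46 and 4.97 in fibroblasts and averaged 6.90 to 7.48 in the pluripotent lines. It was called higher in each line, by 1.92 in ORMES23 and by 1.47 to 2.06 over the lines. Averaged over both probe sets the difference was 4.47 in ORMES23 and 3.89 to 4.56 over the lines, so the size of the FZD5 rise depends on the probe set, and its direction does not.

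FZD3, a Frizzled receptor known from planar polarity and axon guidance, read 3.49, 3.48 and 3.51 in fibroblasts. It read 7.81, 7.0 and 7.09 in ORMES23, 7.12, 7.36 and 6.33 in CRES-1, 7.05, 6.94 and 6.57 in CRES-3, 7.68, 7.64 and 7.65 in RiPS1, 7.32, 6.51 and 6.90 in RiPS2 and 6.67, 6.51 and 5.61 in RiPS3. The groups did not overlap. The difference was 3.80 in ORMES23 (SE 0.29, adjusted p 3.26e-09, limma; at least 4.91-fold), and from 2.77 in RiPS3 to 4.17 in RiPS1. Averaged over its probe sets it was 2.38 in ORMES23 and still called in every line.

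ROR1, a receptor for WNT5A, had 1 probe set and read above log2 5 on all 21 arrays, but only just above it in fibroblasts. Fibroblast arrays read 5.35, 5.15 and 5.05. ORMES23 read 8.38, 8.24 and 8.45, CRES-1 7.80, 7.91 and 7.08, and CRES-3 7.61, 7.43 and 7.26. RiPS1 read 7.02, 6.54 and 6.82, RiPS2 6.96, 7.39 and 7.48, and RiPS3 7.14, 6.88 and 6.82. All pluripotent arrays were above all fibroblast arrays. The difference was 3.17 in ORMES23 (SE 0.19, adjusted p 1.69e-10, limma), a 9.03-fold higher level, and the smallest was 1.61 in RiPS1, 3.05-fold. WNT5A and the receptor ROR1 thus differed in opposite directions in each line. ROR2, the other member of that receptor pair, was not called: it averaged 8.00 ± 0.28 in fibroblasts and from 7.13 ± 0.35 in CRES-3 to 8.40 ± 0.77 in ORMES23.

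FZD10 read 3.73, 4.50 and 4.46 in fibroblasts. It read 5.82, 7.36 and 7.16 in ORMES23, 7.04, 6.63 and 7.53 in CRES-1, 5.46, 5.84 and 5.95 in CRES-3, 5.47, 6.14 and 5.89 in RiPS1, 5.49, 6.09 and 7.36 in RiPS2 and 7.16, 6.0 and 4.68 in RiPS3. The arrays did not overlap with the fibroblasts, but levels varied widely within lines. The difference was 2.55 in ORMES23 (SE 0.54, adjusted p 0.000496, limma; at least 3.43-fold), and the lowest was 1.52 in CRES-3 (adjusted p 0.0202). The CRES-3 call was lost without CRES-3 array B or C or fibroblast array A (1.27), the RiPS1 call without RiPS1 array B (1.45) or fibroblast array A (1.35), and the RiPS3 call without RiPS3 array A (1.11); without RiPS3 array C it was 2.35. Averaged over both probe sets, those 3 lines were at 0.75, 0.74 and 0.91 and were not called, and ORMES23 was at 1.29. The other FZD10 probe set averaged 2.95 to 3.16 over the 7 lines, under background in each, so the average mainly shrinks the difference.

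FZD7, a Frizzled known for its expression in human embryonic stem cells, averaged 9.79 ± 0.22 (SD, n = 3) in fibroblasts and from 10.73 ± 0.43 in RiPS1 to 11.37 ± 0.20 in ORMES23. It was called higher in 5 lines, by 1.26 to 1.58, and missed the fold threshold in RiPS1 at 0.94 (adjusted p 0.000492, limma). FZD4 sat at the threshold: it was called in RiPS1 (1.28), ORMES23 (1.09) and CRES-3 (1.00), and not in RiPS3 (0.89), CRES-1 (0.83) or RiPS2 (0.73). The CRES-3 call was lost under median centring (0.97), and those of ORMES23 and CRES-3 under quantile normalization (0.97 and 0.87) and without fibroblast array B (0.91 and 0.82). ORMES23 array A (0.95 without it), CRES-3 arrays A (0.97) and B (0.92) and fibroblast array C (0.98 in CRES-3) likewise ended a call. Averaged over both probe sets, FZD4 was called in none of the 3.

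By brightest probe sets, FZD6 was the 1 tested receptor called lower. It averaged 8.76 ± 0.42 in fibroblasts and 6.93 ± 0.44 to 7.39 ± 0.30 in the pluripotent lines, with differences from -1.83 in RiPS3 to -1.37 in ORMES23 (SE 0.24) and no overlap of arrays. FZD8, FZD9, LRP6, ROR2 and FZD1 were called in no comparison. For FZD1 that depended on the probe set. The brightest differed by -0.74 to -0.38, but all 4 were lower in each line, 15 of 24 comparisons were called, and the probe set with the largest difference was at -3.54 in CRES-1 and -3.02 in RiPS3. LRP6 was 5.91 on fibroblast array A and 7.04 and 6.91 on B and C.

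**Figure D3:**
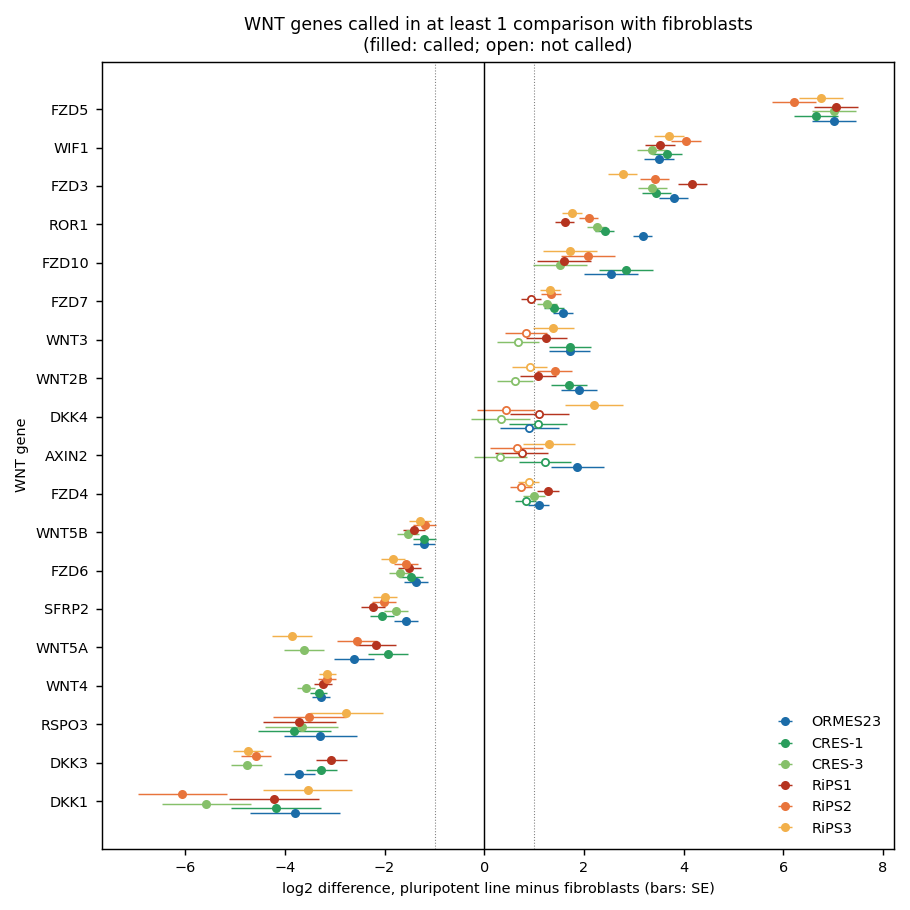
Log2 difference of each pluripotent line minus fibroblasts (points, bars show SE) for the 19 WNT genes called in at least 1 line, with filled points for called and open for not called differences; dotted lines mark a 2-fold change. FZD5 stood alone above 6, while DKK1 and DKK3 were the lowest and DKK1 had the widest SE (0.90).

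Of 8 antagonists tested, WIF1 was called higher and DKK1, DKK3 and SFRP2 lower in each line. Of all genes, 16.4% to 19.3% were called higher and 13.5% to 14.6% lower. WIF1 passed the filter through the pluripotent arrays alone, and no excess is read from these counts. DKK1, which binds LRP5 and LRP6 and blocks beta-catenin signalling, read 12.35, 10.94 and 11.55 in fibroblasts. In ORMES23 it read 9.09, 7.37 and 6.98, in CRES-1 8.57, 8.08 and 5.66, and in CRES-3 5.09, 5.28 and 7.74. In RiPS1 it read 7.47, 8.24 and 6.49, in RiPS2 4.28, 5.62 and 6.77, and in RiPS3 7.90, 9.49 and 6.81. Pluripotent and fibroblast arrays did not overlap, but arrays of 1 pluripotent line lay far apart, as in CRES-1 (8.57 against 5.66). The difference was -3.80 in ORMES23 (SE 0.90, adjusted p 0.00128, limma), a 13.9-fold lower level, and it ran from -6.06 in RiPS2 to -3.55 in RiPS3. Single arrays moved it by more than 1.5-fold: it was -4.44 in ORMES23 without A, -3.29 in CRES-1 without C, -6.43 in CRES-3 without C, -5.42 and -6.66 in RiPS2 without A or C, and -4.26 and -2.92 in RiPS3 without B or C.

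DKK3, a divergent DKK family member, read 11.34, 11.08 and 10.92 in fibroblasts. It read 6.98, 7.72 and 7.50 in ORMES23, 7.59, 7.64 and 8.30 in CRES-1, 6.37, 6.30 and 6.38 in CRES-3, 8.06, 7.77 and 8.29 in RiPS1, 5.61, 6.93 and 7.05 in RiPS2 and 5.95, 6.57 and 6.59 in RiPS3. The groups were far apart. The difference was -3.71 in ORMES23 (SE 0.31, adjusted p 1.02e-08, limma), 13.1-fold, with a range of -4.77 in CRES-3 to -3.07 in RiPS1. Averaged over its 6 probe sets it was -1.75 in ORMES23 and still called in every line.

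SFRP2, a secreted WNT-binding protein, was above background in every line but lower in pluripotent cells. Fibroblast arrays read 11.94, 11.30 and 11.48. ORMES23 read 9.61, 10.24 and 10.17, CRES-1 9.30, 9.38 and 9.88, CRES-3 9.80, 9.75 and 9.87, RiPS1 9.08, 9.27 and 9.68, RiPS2 9.24, 9.34 and 10.08, and RiPS3 9.72, 9.66 and 9.35. No arrays overlapped with the fibroblasts. The difference was -1.57 in ORMES23 (SE 0.24, adjusted p 1.68e-05, limma), 2.97-fold, and -2.23 in RiPS1, the largest. By its brightest probe set SFRP1 was called in no line: all 21 arrays lay between 11.47 and 13.14, with fibroblast array A at 11.86 and B and C at 13.14 and 12.82. Of its 3 probe sets, the dimmest was called lower in CRES-1 (-2.01) and RiPS2 (-1.04). SFRP1 was also called in CRES-1 with the mean of probe sets, and in ORMES23, CRES-1 and RiPS2 without fibroblast array A. SFRP4 and SFRP5 were not called either, and SFRP5 reached log2 5 on 3 arrays only.

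WIF1, the WNT inhibitory factor, was under background in fibroblasts at 3.47, 3.54 and 3.03. It read 6.07, 7.05 and 7.42 in ORMES23, 6.78, 6.90 and 7.36 in CRES-1, 6.96, 6.47 and 6.71 in CRES-3, 6.64, 7.33 and 6.65 in RiPS1, 7.95, 7.04 and 7.19 in RiPS2 and 7.08, 7.14 and 6.93 in RiPS3. All 18 pluripotent arrays were above background. The difference was 3.50 in ORMES23 (SE 0.30, adjusted p 1.53e-08, limma; at least 3.60-fold), and 3.37 in CRES-3 to 4.05 in RiPS2.

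DKK4 rose in RiPS3 (2.20, SE 0.59, adjusted p 0.00329, limma; 4.59-fold), which read 6.64, 8.62 and 6.47 against 5.24, 4.64 and 5.25 in fibroblasts. Without RiPS3 array B the difference was 1.51. In the other lines DKK4 differed by 0.32 to 1.10 and was not called.

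AXIN2, a scaffold of the beta-catenin destruction complex and a widely used readout of pathway activity, was above background on all 21 arrays. Fibroblasts read 7.25, 6.08 and 5.84. ORMES23 read 7.91, 8.47 and 8.38, CRES-1 7.50, 7.24 and 8.08, CRES-3 6.23, 6.70 and 7.20, RiPS1 6.89, 7.55 and 6.97, RiPS2 5.96, 6.86 and 8.30, and RiPS3 8.31, 8.20 and 6.55. Only in ORMES23 did no array overlap with the fibroblasts. The rise was called in ORMES23 (1.87, SE 0.53, adjusted p 0.00507, limma; 3.65-fold) and RiPS3 (1.30, adjusted p 0.0406). In the remaining lines it was 1.22 in CRES-1 (adjusted p 0.0558), 0.75 in RiPS1, 0.65 in RiPS2 and 0.32 in CRES-3, not called.

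The RiPS3 call of AXIN2 was lost without RiPS3 array A (0.98) or B (1.04) or fibroblast array B (1.14) or C (1.02). It was also lost under median centring (1.25), quantile normalization (1.18) or a fit to only the arrays compared (adjusted p 0.0807). Averaged over its 4 probe sets AXIN2 differed by 0.64 in ORMES23 and 0.41 in RiPS3, neither called. Of these 4, 2 passed the filter, and 3 of their 12 comparisons with fibroblasts were called higher.

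Within the pluripotent state, 4 of the 33 members varied among the 6 lines by the limma F test over lines (adjusted p under 0.05 and a range of line means of at least 1), which is 12.1% beside 7.52% of all genes tested. They were ROR1, DKK3, WNT5A and FZD3; at an unadjusted p under 0.05 there were 7 (21.2%), beside 33.7% of all genes. Averaging probe sets left 2, ROR1 and WNT5A. DKK3 then kept an adjusted p of 0.00166 (limma F test), but its range, 0.73, was under 1.

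**Figure D4:**
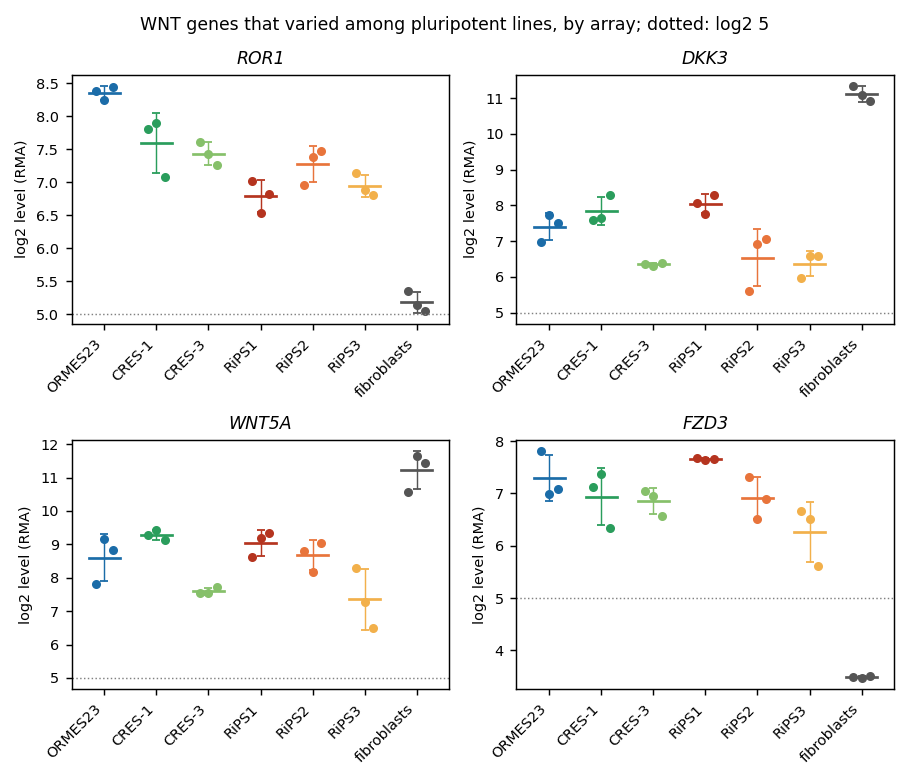
RMA log2 level of ROR1, DKK3, WNT5A and FZD3 on each array (points), with line mean (bar) and SD (whisker), in the 6 pluripotent lines and fibroblasts. ROR1 was highest in ORMES23, and DKK3 and WNT5A had higher means in ORMES23, CRES-1 and RiPS1 than in CRES-3 and RiPS3.

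ROR1 was the member that set ORMES23 apart from the induced lines. Its mean was 8.36 ± 0.10 (SD, n = 3) in ORMES23, 7.59 ± 0.45 in CRES-1, 7.44 ± 0.18 in CRES-3, 7.28 ± 0.27 in RiPS2, 6.94 ± 0.17 in RiPS3 and 6.79 ± 0.24 in RiPS1, a range of 1.56 (F test adjusted p 0.000377, limma). No array of another pluripotent line reached the lowest ORMES23 array, 8.24. Relative to ORMES23 it was lower in RiPS1 by a log2 difference of -1.56 (SE 0.19, adjusted p 8.99e-05, limma; 2.96-fold), in RiPS3 by -1.41 (adjusted p 0.000809; 2.66-fold) and in RiPS2 by -1.08 (adjusted p 0.00930; 2.12-fold). The RiPS2 call was lost without ORMES23 array C (-1.04, adjusted p 0.0502) or RiPS2 array A (-0.93) and with only the arrays compared (adjusted p 0.0877). In the cloned lines ROR1 was lower by less than 2-fold, with -0.92 in CRES-3 (adjusted p 0.0166) and -0.76 in CRES-1 (adjusted p 0.157), neither called.

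ROR1 was the only member called in any comparison with ORMES23, so that 1 of 33 was called in RiPS1, RiPS2 and RiPS3 and 0 in CRES-1 and CRES-3 by limma. Of all genes tested, 2.4% were called in RiPS1, 0.458% in RiPS2, 0.763% in RiPS3, 0.996% in CRES-3 and 0% in CRES-1. These 5 comparisons share the ORMES23 arrays. At an unadjusted p under 0.05 there were 7, 6 and 9 members in RiPS1, RiPS2 and RiPS3, 8 in CRES-3 and 2 in CRES-1, which is 6.06% to 27.3% of members beside 11.4% to 20.8% of all genes. Without ORMES23 array A the counts were 2 in RiPS1, 3 in RiPS3 and 2 in CRES-3 (DKK3 and WNT2B). Without RiPS3 array A, RiPS3 had 3, and without CRES-3 array A, CRES-3 had 1, ROR1. The calls of all genes in these refits are not set beside these counts, so nothing about the members is read from them.

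Cloned lines set against the induced line of the same labelled sex showed no called member by limma. In CRES-3 against RiPS3, both female, 0 of 33 members and 0.0359% of all genes were called; at an unadjusted p under 0.05 there were 4 members (12.1%) and 7.91% of all genes. DKK4 had the smallest p, at 5.37 ± 0.87 in CRES-3 and 7.24 ± 1.20 in RiPS3 (difference -1.88, SE 0.59, adjusted p 0.310). In CRES-1 against RiPS1, both male, 0 of 33 members and 2.14% of all genes were called; at an unadjusted p under 0.05 there were 6 members (18.2%) and 22% of all genes. ROR1 had the smallest p, at a difference of 0.80 (adjusted p 0.0170), under 2-fold, and it was called without CRES-1 array C. With only the arrays compared, 1 member was called, FZD10.

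DKK3 means were 8.04 ± 0.26 in RiPS1, 7.84 ± 0.40 in CRES-1, 7.40 ± 0.38 in ORMES23, 6.53 ± 0.80 in RiPS2, 6.37 ± 0.36 in RiPS3 and 6.35 ± 0.05 in CRES-3. The upper 3 lines were those labelled male and the lower 3 those labelled female, and no array of the lower 3 exceeded 7.05 while 1 ORMES23 array (6.98) fell below that. The range was 1.69 (adjusted p 0.00137, limma F test), and 0.73 (adjusted p 0.00166) when probe sets were averaged. Of the 6 probe sets averaged, 2 passed the filter, and the rest had means under log2 5 in every pluripotent line. The second of those 2 gave the same order of lines, at 6.15 in RiPS1, 5.82 in CRES-1, 5.23 in ORMES23, 4.55 in RiPS2, 4.46 in RiPS3 and 4.19 in CRES-3. Its lower 3 lines were under background. With 3 lines of each labelled sex and different routes, ages and derivations, sex cannot be told apart from the line.

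WNT5A means were 9.28 ± 0.14 in CRES-1, 9.05 ± 0.39 in RiPS1, 8.67 ± 0.45 in RiPS2, 8.60 ± 0.71 in ORMES23, 7.60 ± 0.10 in CRES-3 and 7.35 ± 0.91 in RiPS3, a range of 1.92 (adjusted p 0.00905, limma F test). Neighbours in this order overlapped in their arrays except ORMES23 and CRES-3. RiPS3 array A (8.30) also lay above ORMES23 array A (7.80) and RiPS2 array B (8.18). Averaged over probe sets the range was 1.30 (adjusted p 0.00626). The fibroblast markers, 6 of 9 of which reached log2 5 in each pluripotent line, had list means of 7.15 in CRES-1, 6.98 in RiPS2, 6.96 in RiPS1, 6.83 in ORMES23, 6.65 in RiPS3 and 6.40 in CRES-3. The lines low in WNT5A were thus the 2 lowest in that list; its part in the result was not tested.

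FZD3 means were 7.66 ± 0.02 in RiPS1, 7.30 ± 0.44 in ORMES23, 6.94 ± 0.54 in CRES-1, 6.91 ± 0.40 in RiPS2, 6.86 ± 0.25 in CRES-3 and 6.26 ± 0.57 in RiPS3, a range of 1.39 (adjusted p 0.0324, limma F test). The call was lost without any 1 of RiPS1 arrays A, B and C, or without RiPS3 array C. The next probe set of FZD3 ordered the lines differently: it averaged 7.24 in CRES-3 and 6.91 in RiPS3 but 6.25 in RiPS1 and 6.12 in CRES-1. Averaged over probe sets the range was 0.49 (adjusted p 0.221), so the line order of FZD3 was not settled by these arrays, while both probe sets were higher in every pluripotent line than in fibroblasts.

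Arrays of a single line also differed from each other. Over the 6 pluripotent lines the median within-line SD was 0.287 for the 33 members and 0.187 for all genes tested. DKK1 had the widest, 1.29, ahead of DKK4 (0.85), FZD10 (0.77) and AXIN2 (0.71).

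In DKK1 the array differences ran alongside endoderm markers in most lines. All 7 endoderm markers on the array reached log2 5 as line means in every pluripotent line, and 4 of 7 did so in fibroblasts, where the list mean per array lay between 5.77 and 5.99. In ORMES23 the list mean was 9.44 on A, 7.68 on B and 7.16 on C, the order of DKK1 in that line. It was 8.15, 7.95 and 6.51 in CRES-1, 6.36, 6.81 and 7.68 in CRES-3, 8.30, 7.80 and 7.38 in RiPS1, 6.80, 6.49 and 6.90 in RiPS2 and 7.73, 8.15 and 6.93 in RiPS3. The array with the highest DKK1 was the array highest in endoderm markers in 5 of the 6 lines, and the lowest matched in 5 of 6. RiPS1 and RiPS2 held the exceptions.

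Agreement in at least 5 lines was found for 1.84% of all genes for the highest array and 2.22% for the lowest. Of the other members, ROR2 reached it with 5 and 6 lines, and WNT4, near background, for the lowest array with 5. Primitive streak and mesoderm markers had the same highest and lowest array as the endoderm markers in each line, so they give the same counts and no further evidence. Neural ectoderm and trophoblast markers followed DKK1 in some lines and not in others. ORMES23 array A, highest in DKK1, was lowest in both lists (5.21 and 5.27). The array highest in DKK1 was highest in neural ectoderm markers in CRES-1 (A, 6.56) and in trophoblast markers in CRES-3 (C, 5.23). The part of differentiating cells in these levels was not tested.

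**Figure D5:**
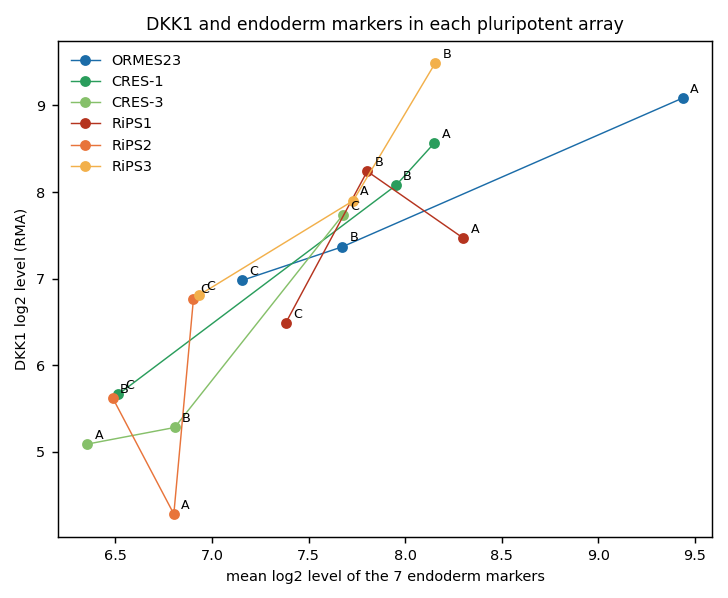
DKK1 log2 level (vertical) against the mean log2 level of 7 endoderm markers (horizontal) on each of the 18 pluripotent arrays; colours and joining lines mark the line, letters the array. Within ORMES23, CRES-1, CRES-3 and RiPS3 the highest and lowest arrays of both measures coincide.

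The wider pathway was read from 4 lists of other WNT genes. The filter in part fixed the direction of list genes under log2 5 in fibroblasts, such as SOSTDC1 (mean 3.84 there) and BAMBI (4.57). No excess over all genes is therefore read from the list counts that follow. Of 32 intracellular and nuclear components, 22 had a probe set and were tested. Against fibroblasts 5 to 7 were called higher and 0 or 1 lower in each line. The counts were 6 and 0 in ORMES23, 5 and 1 in CRES-1 and 7 and 1 in CRES-3. In the induced lines they were 6 and 1 (RiPS1), 5 and 0 (RiPS2) and 5 and 1 (RiPS3). That is 22.7% to 36.4% of those tested, near the 30.6% to 33.3% of all genes called in either direction in these comparisons. TCF7L1, a TCF factor that acts mainly as a repressor, rose by 2.28 in ORMES23 (SE 0.14, adjusted p 2.52e-10, limma). TLE1, a Groucho co-repressor, rose by 2.70, TNIK, a kinase that binds TCF factors, by 2.34, AMER1, a membrane partner of APC, by 2.38 and BCL9, a beta-catenin co-activator, by 1.46. Each of these 5 was called higher in all 6 lines. Among the pluripotent lines TLE5, a short Groucho-related protein, varied (range 1.19, adjusted p 0.00524, F test), with means from 8.66 in RiPS2 to 9.86 in RiPS1. GSK3B (0.70) and TNIK (0.58) stayed under a range of 1.

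Of 22 other secretion and surface regulators, 14 were tested. In ORMES23 4 were called higher and 2 lower. The counts were 5 and 2 in CRES-1 and RiPS1, 5 and 3 in CRES-3 and RiPS3, and 4 and 3 in RiPS2. That is 42.9% to 57.1% of those tested, against 30.6% to 33.3% of all genes, and the falls in ORMES23 were at the share of all genes (14.1%). GPC3 and GPC4, glypicans of the cell surface, rose by 4.03 and 2.89 in ORMES23 (adjusted p 4.06e-13 and 4.06e-12, limma). LGR4, an R-spondin receptor, rose by 3.47, and CER1, a secreted antagonist of nodal, BMP and WNT that is also an endoderm gene, by 4.17 (SE 1.05), at least 14.3-fold since fibroblasts were under log2 5. LYPD6 differed by 0.75, not called.

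Of that list CER1 had the widest range of line means (3.54) but was not called by the F test. SOSTDC1, a secreted antagonist of BMP and WNT, had the smallest p by that test. Its means were 6.58 ± 0.39 in RiPS1, 6.51 ± 0.32 in RiPS3, 6.31 ± 0.84 in CRES-1, 4.97 ± 0.60 in CRES-3, 4.59 ± 0.55 in ORMES23 and 3.43 ± 0.20 in RiPS2 (adjusted p 5.63e-05, limma F test). It was higher than in ORMES23, itself under log2 5, in RiPS1 (at least 2.99-fold, adjusted p 0.00263) and RiPS3 (at least 2.85-fold, adjusted p 0.00998). APCDD1, a membrane WNT inhibitor, ranged over 2.16 (adjusted p 0.000335), from 8.72 ± 0.30 in RiPS1 to 6.56 ± 0.41 in RiPS3, and was lower in RiPS3 than in ORMES23 (-1.19, adjusted p 0.0466). PORCN, the enzyme that acylates WNT ligands, ranged over 1.02 (adjusted p 0.0181).

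Of 24 planar polarity and non-canonical genes, 19 were tested. The counts higher and lower than in fibroblasts were 6 and 4 in ORMES23, CRES-1 and RiPS2, 7 and 3 in CRES-3, 6 and 3 in RiPS1 and 4 and 3 in RiPS3. That is 36.8% of those tested in RiPS3 and 47.4% to 52.6% in the other lines, against 30.6% to 33.3% of all genes. VANGL2, a core polarity membrane protein, rose by 4.29 in ORMES23 (SE 0.17, adjusted p 3.95e-13, limma), and DAAM1, a formin downstream of Dishevelled, by 2.48. DAAM2 fell (-1.93), as did PTK7, a co-receptor (-1.76), and PRICKLE2 (-1.73). The paralogs DAAM1 and DAAM2 thus differed in opposite directions, in all 6 lines. By the F test 0 of the 19 were called, beside 7.52% of all genes tested. At an unadjusted p under 0.05 there were 5 of the 19, beside 33.7% of all genes.

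Of 24 WNT target genes, 19 were tested. The counts higher and lower were 6 and 4 in ORMES23, 5 and 5 in CRES-1, 4 and 5 in RiPS1 and RiPS3, and 2 and 4 in CRES-3 and RiPS2. In CRES-3 and RiPS2 that is 31.6% of those tested, near the 33.3% and 31.8% of all genes, and in the other lines 47.4% to 52.6%. BAMBI, a decoy receptor of the TGF-beta family, rose by 6.09 in ORMES23 (SE 0.30, adjusted p 8.93e-12, limma), and EOMES, a streak and endoderm factor, by 4.98 (SE 0.59). FGF9 rose by 1.33. These 3 were under log2 5 in fibroblasts, so they were at least 50.4-fold, 29.0-fold and 2.02-fold higher in ORMES23. MSX1 fell by 2.89 and NKD1 differed by -0.48, not called. By the F test FGF9 (range 1.18, adjusted p 0.0445) and APCDD1 varied among the pluripotent lines.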

How the data were processed

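The authors deposited 1 log2 intensity per probe set and array, made with RMA, a background correction, quantile normalization and probe summary in 1 procedure, per the submitters' processing notes; its version is not given in the sources used here. Of 52865 probe sets, 24969 carried 1 gene symbol, 361 several and 27535 none, and the last 2 kinds were left out. The authors' values were fitted in limma 3.58.1 (R 4.3.3) with 1 mean per line, 21 arrays and 14 residual degrees of freedom, and p-values were two-sided. Folds whose dimmer mean was under log2 5 are lower bounds counted from log2 5. No pair of arrays was identical.

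Every array is given for the 6 largest rises and 6 largest falls called in ORMES23 against fibroblasts without overlap, for members called between pluripotent lines or by the F test, and for AXIN2. From each pathway list, up to 5 genes with the smallest p in ORMES23 against fibroblasts and up to 3 by the F test are named, without array values. Other members are described by their range and their calls. The members, lists and tests were chosen with earlier results of these data known. The fit was tested on simulated data. Alternatives were median centring, quantile normalization, a log2 filter of 6 or none, the mean of probe sets, a trended robust spread, only the arrays compared, the replicate block and leaving out each array; a fit per probe set and an interaction of route and labelled sex were added after the data were seen. Array letters deviated together, of the 21 pairs of lines, in CRES-1 and RiPS1 alone (correlations 0.318, 0.330 and 0.348), and the replicate block left the count there at 0.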

Additional observations from a re-analysis of the deposited data

How the results depend on the processing

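Of 104 called differences of single members, refitted 1504 times under the alternatives, 1450 kept their call, 54 lost it and 0 reversed; 84 were called throughout. Averaging probe sets lost the most calls of any setting, 14. Some of these averages take in probe sets under background in every line, as for FZD10 and FZD4. The counts against fibroblasts stayed within 1.5 times under every alternative run; leaving out 1 array gave 17 to 18 in ORMES23, 16 to 18 in CRES-1, 13 to 15 in CRES-3, 14 to 18 in RiPS1, 15 to 15 in RiPS2 and 15 to 18 in RiPS3. With only the arrays compared, the counts against ORMES23 were 2 in CRES-3, 2 in RiPS1 and 0 in RiPS2, and 1 in CRES-1 against RiPS1. Leaving out 1 array gave 0 to 2 in CRES-3, 1 to 2 in RiPS1, 0 to 1 in RiPS2 and 1 to 3 in RiPS3 against ORMES23, and 0 to 1 in CRES-1 against RiPS1. The F test called 2 members with the mean of probe sets and 3 to 5 with 1 array left out. These refitted counts are likewise given without the calls of all genes, and nothing about the members is read from them. Fewer arrays in a fit leave fewer degrees of freedom; other causes were not tested.

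With the replicate block, RiPS3 against ORMES23 had 2 members called (FZD3 and ROR1), and AXIN2 in RiPS3 against fibroblasts was no longer called (1.30, adjusted p 0.0531, limma); the block changed no other call. Outside CRES-1 and RiPS1 the letters share only a name: same-letter arrays of different lines had a mean correlation of 0.0097. Levels near log2 5 limit FZD10, WNT2B, RSPO3 and WNT4 in the dimmer lines, and ROR1 in the fibroblasts.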

Other observations

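Whether CRES-3 minus RiPS3 differed from CRES-1 minus RiPS1 was tested as an interaction in limma, chosen after the data were seen. Each labelled sex and route is 1 line here, so sex and line cannot be told apart. At an adjusted p under 0.05 it called 0 of the 33 members and 543 of all 11143 genes. At an unadjusted p under 0.05 there were 4 members, and the share of all genes at that level was not counted. FZD3 had the smallest p, with an interaction of 1.31 (SE 0.41, adjusted p 0.0763).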
